A study of Mus musculus with 12 samples.

Results

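The carboxylesterases are serine hydrolases, most of them held in the lumen of the endoplasmic reticulum, which cleave ester, thioester and amide bonds in drugs, pesticides and lipids. Liver is among their richest sources. Enzymes of the Ces1 subfamily favour esters with a large acyl group on a small alcohol, those of the Ces2 subfamily a small acyl group on a large alcohol, and several members of both also hydrolyse triglycerides and other neutral lipids. Several Ces2 genes are known to respond to PXR and CAR, the xenobiotic-sensing nuclear receptors. The 10 genes described here were Ces1b, Ces1c, Ces1d, Ces1e, Ces1f, Ces1g, Ces2a, Ces2c, Ces2e and Ces3a, taken by symbol from the table of transformed values and joined by Ensembl identifier to the table of counts. They are 10 of 51912 genes counted, and all 10 were among the 8594 genes with enough counts to be tested.

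Liver mRNA was sequenced from 12 adult male mice, 3 in each of 4 groups. WT mice were given corn oil or CITCO, a compound that activates human CAR and, less selectively, human PXR. The sequenced mice carrying human CAR and human PXR (hCAR/hPXR), and those that lack Car and carry human PXR (Car KO/hPXR), were all given CITCO. CITCO was injected intraperitoneally at 10 mg/kg once a day for 4 days, and livers were taken on day 5. The deleted and humanised lines were made on a C57BL/6NTac background. Since the only corn oil livers sequenced were those of WT mice, an effect of genotype and a response to CITCO in the hCAR/hPXR and Car KO/hPXR groups cannot be told apart.

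The libraries, which capture transcripts at their 3′ end, held 1167027 to 2341572 counts each. At these depths 3 counts, the lowest level taken as detected, were worth 1.3 to 2.5 CPM (counts per library total scaled by TMM normalization factors), and this limit covers counting error only. Mouse Nr1i2, which encodes Pxr, had 100 to 199 counts in the WT libraries and at most 2 in the libraries of the humanised genotypes. Mouse Nr1i3, which encodes Car, had 104 to 287 counts in WT and at most 6 in the other genotypes, so both genes followed the labels. The human transcripts were not measured. Of 20 acute phase genes, which liver makes more of during inflammation, the summed level was 11663 to 13499 CPM in WT corn oil, 13501 to 21956 in WT CITCO, 19638 to 39979 in hCAR/hPXR CITCO and 13473 to 15949 in Car KO/hPXR CITCO. The 7 hepatocyte markers summed to 32954 to 37824 CPM in WT corn oil, 32018 to 40803 in WT CITCO, 24877 to 39612 in hCAR/hPXR and 35647 to 38619 in Car KO/hPXR, with no marker at 0 and none called in edgeR (1, Fabp1, in DESeq2). None of the genes marking Kupffer, endothelial, stellate, bile duct, red blood or lymphoid cells passed the test in any comparison, in edgeR or in DESeq2. At most 3 of a list had an unadjusted p under 0.05 in edgeR. In hCAR/hPXR against WT CITCO this was 3 of 5 red blood cell genes (8.81% of all genes tested). All 5 were lower in hCAR/hPXR, with a median log2 difference of -0.54. In WT CITCO against corn oil it was 3 of 9 Kupffer cell genes (9.13% of all genes tested). The part of blood content in the carboxylesterase levels was not tested. Only 1 of 6 bile duct, 1 of 7 lymphoid and 5 of 7 stellate markers had enough counts to be tested in edgeR. The absence of calls therefore says little of bile duct and lymphoid cells. The bile duct marker Cldn7 had no count. In whole liver, fewer cells of a type and less RNA per cell cannot be told apart.

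All 10 genes lie on mouse chromosome 8 in the GRCm38 build, in 2 clusters. The Ces1 cluster is on the minus strand, with Ces1b at chr8:93056728-93080017, Ces1c at chr8:93099015-93131283, Ces1d at chr8:93166068-93197838, Ces1e at chr8:93201218-93229619, Ces1f at chr8:93256236-93279747 and Ces1g at chr8:93302369-93337308. The other cluster is on the plus strand, with Ces2a at chr8:104734003-104741634, Ces2c at chr8:104847068-104854483, Ces2e at chr8:104926260-104934672 and Ces3a at chr8:105048601-105058413. These are whole genes, introns and exons together, in an annotation that is not the release used for counting. Close relatives in each cluster share sequence, and reads that match several of them were divided between genes by estimation. Of the last 400 bases of the longest coding transcript of each member, the share of 50-base words also present in another carboxylesterase gene was 29.3% in Ces1b and 31.9% in Ces1c, each shared with the other. It was 10.5% in Ces2a (shared with Ces2e and Ces2b), 36.8% in Ces2c (shared with Ces2d-ps, Ces2e and Ces2b) and 25.9% in Ces3a (shared with Ces3b). The last 400 bases of Ces1d, Ces1e, Ces1f, Ces1g and Ces2e held no such word. The words that Ces2a and Ces2c share with Ces2e lie outside that stretch of Ces2e. Even so, the expected counts of Ces2e were not whole numbers in 11 of 12 libraries, so some of its reads were divided with other genes. This held in 10 libraries for Ces2a and for Ces2c, 7 for Ces1e, 6 for Ces1g, 2 for Ces1d and 1 for Ces1f. The number of reads divided was not measured.

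The 250 bases before the start of the Ces2 members are shown because Ces2a and Ces2e, which lie in one cluster, gave the clearest differences between groups and in opposite directions. They are RefSeq sequences of GRCm38.p6 on the plus strand, 5′ to 3′, at chr8:104733753-104734002 for Ces2a, chr8:104846818-104847067 for Ces2c and chr8:104926010-104926259 for Ces2e. Capitals mark the half-sites searched for, which were AGGTCA and AGTTCA on either strand, the letters that CAR, PXR and related receptors bind in pairs.
Ces2a: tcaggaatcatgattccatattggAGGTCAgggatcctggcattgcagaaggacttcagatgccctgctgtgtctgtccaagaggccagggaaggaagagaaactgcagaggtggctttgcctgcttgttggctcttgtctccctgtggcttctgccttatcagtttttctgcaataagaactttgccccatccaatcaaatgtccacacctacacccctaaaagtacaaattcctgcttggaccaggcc
Ces2c: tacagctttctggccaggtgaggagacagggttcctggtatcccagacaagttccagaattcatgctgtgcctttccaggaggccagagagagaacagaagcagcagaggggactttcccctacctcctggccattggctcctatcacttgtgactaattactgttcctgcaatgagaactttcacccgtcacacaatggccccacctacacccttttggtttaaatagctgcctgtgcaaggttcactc
Ces2e: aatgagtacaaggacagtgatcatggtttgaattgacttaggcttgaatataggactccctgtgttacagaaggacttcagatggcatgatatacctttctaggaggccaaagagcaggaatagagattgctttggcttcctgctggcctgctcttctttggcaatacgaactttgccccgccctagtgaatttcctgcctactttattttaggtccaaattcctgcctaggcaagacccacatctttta
Ces2a held 1 AGGTCA, beginning 226 bases before the start of the gene, and neither of the others held a half-site in the window of 250 bases before and 50 after the start. Among 32851 such windows of all genes, 27.7% held a half-site, so a single match is common. A pair of half-sites in the same orientation with 4 bases between them was present in 0.0274% of all windows and in none of the 7 members that had a sequence. Pairs with other spacings or orientations, other letters and sequence outside these windows were not searched. The result therefore does not show that these genes lack receptor sites. Besides Ces2a, Ces1b held a half-site, 1 site seen in both of its overlapping windows, while Ces1c, Ces1e and Ces1g held none.

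In 40 gene comparisons, 10 genes in each of 4 comparisons, 2 passed the test, which required an adjusted p under 0.05 and a fold change over 1.5 (edgeR quasi-likelihood test, Benjamini-Hochberg adjustment over 8594 genes). Among mice given CITCO, Ces2a was 2.12-fold higher in the hCAR/hPXR group than in WT, and Ces2e was 1.64-fold lower in the hCAR/hPXR group than in Car KO/hPXR. No other member passed in any comparison.

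**Figure D1:**
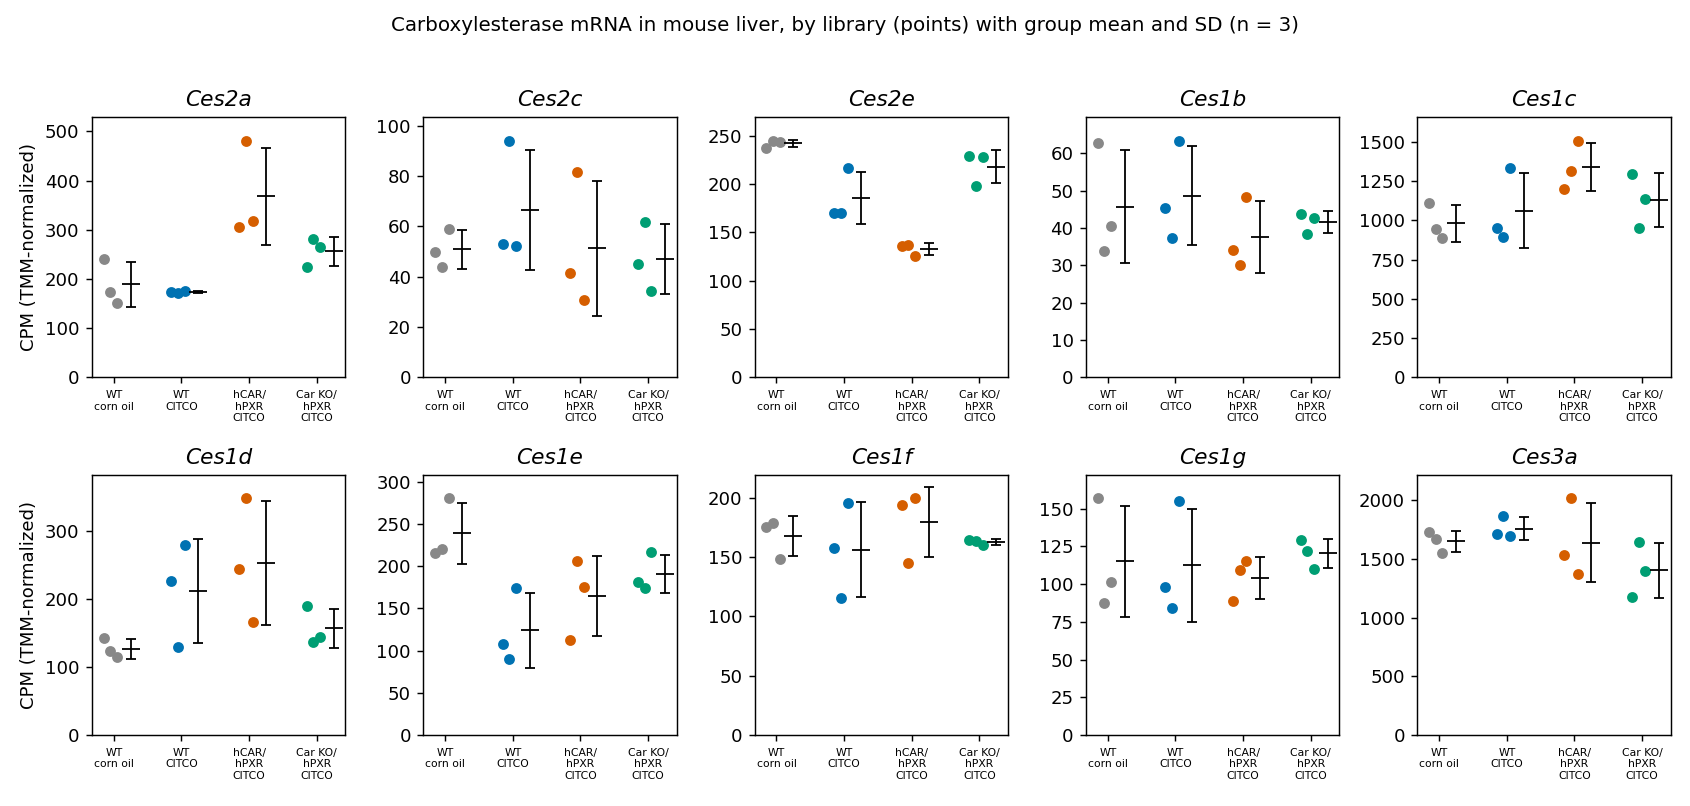
Level of each of the 10 carboxylesterases in CPM (vertical axis, from 0) in the 12 livers, with points for libraries and bars for group mean and SD (n = 3). Ces2a was highest in the 3 hCAR/hPXR libraries and Ces2e was lowest in them, while most other genes overlapped between groups.

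Ces2a, an enzyme of the subfamily that handles esters with large alcohol groups, was higher in both humanised genotypes than in WT mice given CITCO, and the difference passed the test in hCAR/hPXR mice. Its level was 241, 173 and 152 CPM in the 3 WT corn oil livers and 174, 171 and 177 CPM in the 3 WT CITCO livers. In hCAR/hPXR CITCO livers it was 305, 481 and 318 CPM, and in Car KO/hPXR CITCO livers 224, 281 and 264 CPM. Every hCAR/hPXR library was above every library of the other groups, and every Car KO/hPXR library was above every WT CITCO library, although the first WT corn oil liver lay within the Car KO/hPXR range. Group means were 189 ± 46.6 CPM in WT corn oil, 174 ± 2.90 in WT CITCO, 368 ± 97.9 in hCAR/hPXR and 256 ± 29.0 in Car KO/hPXR (SD, n = 3).

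Over WT CITCO, the log2 fold change of Ces2a in hCAR/hPXR mice was 1.08 (SE 0.20, 95% interval 0.67 to 1.49), with an adjusted p of 0.0138 in edgeR. The exact permutation test on the CPM of this gene, two-sided, gave p = 0.1, the smallest that 3 libraries against 3 allow. The call was lost without the second hCAR/hPXR library, which had the highest level of Ces2a (log2 fold change 0.84, edgeR adjusted p = 0.0650), and without any 1 of the WT CITCO libraries (edgeR adjusted p from 0.0535 to 0.0937). Of all genes tested in this comparison, 0.407% passed, against 1 of the 10 carboxylesterases. DESeq2 called the same member and 1.96% of the 3309 genes to which it gave an adjusted p. That set differs between comparisons and from the genes tested in edgeR, so the shares of the 2 methods are not directly comparable. In edgeR 8.81% of genes had an unadjusted p under 0.05, against 2 of the 10.

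In Car KO/hPXR mice the log2 difference of Ces2a from WT CITCO was 0.56 (SE 0.20, 95% interval 0.15 to 0.97), which did not pass after adjustment over all genes (edgeR adjusted p = 0.314). From Car KO/hPXR to hCAR/hPXR the difference was 0.52 (95% interval 0.12 to 0.93, edgeR adjusted p = 0.312), so the separation of these neighbours in the order of levels did not pass either. Ces2a of WT CITCO livers lay within the range of the corn oil group, with a log2 difference of -0.13 (95% interval -0.54 to 0.29, edgeR adjusted p = 0.901). Set beside WT corn oil, from which the humanised groups differ in genotype and in treatment, and with no test made, the mean of Ces2a was 1.95 times as high in hCAR/hPXR and 1.36 times as high in Car KO/hPXR livers.

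Ces2e, a neighbour of Ces2a in the same cluster, had its lowest levels in hCAR/hPXR livers, where Ces2a was highest. It stood at 237, 245 and 244 CPM in WT corn oil, and at 170, 170 and 217 CPM in WT CITCO. It was 136, 137 and 126 CPM in hCAR/hPXR CITCO and 229, 198 and 228 CPM in Car KO/hPXR CITCO. The 3 hCAR/hPXR libraries lay below the other 9, and the 3 WT corn oil libraries lay above the others. Group means were 242 ± 4.01, 186 ± 26.9, 133 ± 6.04 and 218 ± 17.5 CPM in that order (SD, n = 3).

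The lower level of Ces2e passed the test against Car KO/hPXR livers, in a comparison of mice that share human PXR and CITCO and differ in the presence of CAR. The log2 fold change was -0.71 (SE 0.15, 95% interval -1.02 to -0.41, edgeR adjusted p = 0.0289). In this comparison 0.582% of all genes tested passed, against 1 of the 10 carboxylesterases. DESeq2 called 2.46% of the 4021 genes to which it gave an adjusted p and, of the members, Ces2e alone. In edgeR 10.6% of genes had an unadjusted p under 0.05, against 3 of the 10. The call was lost when any of 5 of the 6 livers was left out (each hCAR/hPXR liver and replicates 1 and 3 of Car KO/hPXR), with log2 fold changes of -0.78 to -0.68 over all 6 and an edgeR adjusted p of up to 0.134. Against WT mice given CITCO, Ces2e in hCAR/hPXR differed by -0.48 on the log2 scale (95% interval -0.79 to -0.17, edgeR adjusted p = 0.251). WT CITCO livers were all below WT corn oil livers, with a log2 difference of -0.38 (95% interval -0.68 to -0.081, edgeR adjusted p = 0.381), and neither difference passed.

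Most acute phase genes were higher in hCAR/hPXR both where Ces2e was lower (against Car KO/hPXR) and where Ces2a was higher (against WT CITCO). Of the 20 genes, 5 were higher in the hCAR/hPXR group than in Car KO/hPXR by the test (11 in DESeq2) and all 20 had a positive log2 difference. Those called were Hp, which encodes haptoglobin, at 3.16-fold, Lbp, the lipopolysaccharide-binding protein, at 2.13-fold, Orm2, an orosomucoid, at 8.09-fold, and the serum amyloids Saa4 at 2.85-fold and Saa2 at 30.3-fold. The 9 Kupffer cell markers, none of them called and none at 0, summed to 280 to 348 CPM in WT corn oil, 326 to 505 in WT CITCO, 436 to 575 in hCAR/hPXR and 355 to 400 in Car KO/hPXR. In the comparison of hCAR/hPXR with WT CITCO, where Ces2a was higher, 1 acute phase gene passed (Saa4, a constitutive serum amyloid, 2.12-fold higher), DESeq2 called 4, and 19 of 20 had a positive difference. An unadjusted p under 0.05 in edgeR was held by 15 of the 20 there (8.81% of all genes tested). Against Car KO/hPXR it was held by 16 of the 20 (10.6% of all genes tested). The part of the acute phase genes and of Kupffer cells in the levels of Ces2a and Ces2e was not tested. In WT mice the fitted rise with CITCO was 24.2-fold for Saa1 and 28.7-fold for Saa2 (close relatives between which reads may be split). For each, the lowest WT CITCO value lay within the corn oil range. It was 78.1 CPM for Saa1 (corn oil 18.1 to 99.9) and 24.6 CPM for Saa2 (corn oil 8.45 to 27.3). Between these groups Ces2a was at 171 to 177 CPM in CITCO against 152 to 241 CPM in corn oil. Ces2e was at 170 to 217 CPM in CITCO against 237 to 245 CPM in corn oil.

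Ces2c, which hydrolyses triglycerides and diglycerides, overlapped between groups in all 4 comparisons. Its level was 49.7, 43.7 and 59.2 CPM in WT corn oil, 53.2, 94.0 and 52.1 in WT CITCO, 41.4, 81.6 and 30.9 in hCAR/hPXR and 45.1, 61.8 and 34.5 in Car KO/hPXR. The second library was the highest in each of the 3 CITCO groups. Log2 differences ran from -0.50 (Car KO/hPXR against WT CITCO, 95% interval -1.16 to 0.17) to 0.38 (WT CITCO against corn oil, 95% interval -0.27 to 1.03), and these intervals do not show equal levels.

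Summed over the 8 Ces2 genes, a total that does not depend on how reads were divided among them, the level was 514 ± 37.0 CPM in WT corn oil, 456 ± 33.0 in WT CITCO, 579 ± 124 in hCAR/hPXR and 558 ± 25.9 in Car KO/hPXR (SD, n = 3). The WT CITCO group, at 418 to 476 CPM, lay below the others, which overlapped each other at 487 to 556 CPM in WT corn oil, 503 to 722 in hCAR/hPXR and 531 to 583 in Car KO/hPXR. Within that total, Ces2a took 36.5% ± 6.51 in WT corn oil, 38.3% ± 2.99 in WT CITCO, 63.1% ± 3.46 in hCAR/hPXR and 45.8% ± 3.17 in Car KO/hPXR (SD, n = 3). Ces2e took 47.3% ± 4.04, 40.7% ± 4.97, 23.5% ± 4.08 and 39.2% ± 4.71 in the same order. The shares are of 3′ counts, which were not divided by transcript length, and were compared between groups only. In single livers the share of Ces2a did not overlap between hCAR/hPXR and the other groups, and neither did that of Ces2e.

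**Figure D2:**
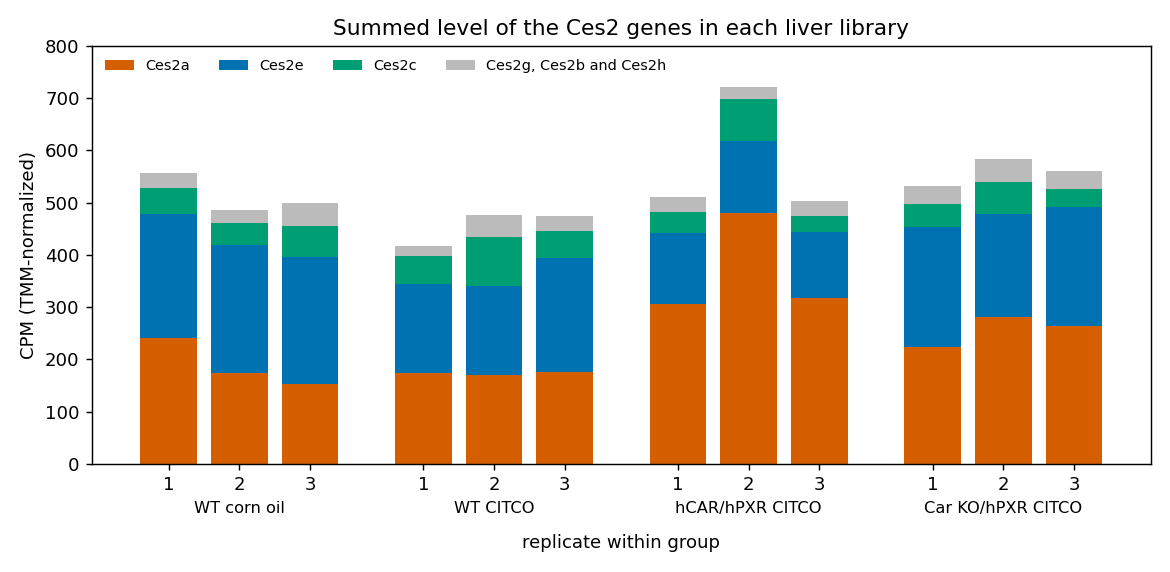
Level of the Ces2 genes in CPM (vertical axis) in each of the 12 livers, stacked as Ces2a, Ces2e, Ces2c and the sum of Ces2g, Ces2b and Ces2h. Ces2a takes the largest part of the bar in the 3 hCAR/hPXR livers, 59.7% to 66.6% of the sum, and 30.5% to 43.4% in WT corn oil livers.

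The Ces1 genes gave no call, and their largest difference was a lower level of Ces1e in WT mice given CITCO. Ces1e, also known as egasyn, holds beta-glucuronidase in the endoplasmic reticulum. Its level was 216, 221 and 280 CPM in WT corn oil and 108, 89.9 and 174 CPM in WT CITCO. It was 113, 206 and 175 CPM in hCAR/hPXR and 182, 175 and 217 CPM in Car KO/hPXR. All 3 WT CITCO libraries were below all 3 WT corn oil libraries and, the highest of them by less than 1 CPM, below all 3 Car KO/hPXR libraries.

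The log2 difference of Ces1e between WT CITCO and WT corn oil was -0.95 (SE 0.23, 95% interval -1.44 to -0.46), a mean of 124 ± 44.1 against 239 ± 35.8 CPM (SD, n = 3). It did not pass in edgeR's quasi-likelihood test (adjusted p = 0.138), but DESeq2 gave an adjusted p of 0.0397 at nearly the same size, -0.94. Without the third WT CITCO library, the highest of its group, it also passed (log2 fold change -1.27, edgeR adjusted p = 0.0171). In this comparison 0.233% of all genes tested passed and none of the 10 carboxylesterases did, although 3 of the 10 had an unadjusted p under 0.05 (9.13% of all genes tested). DESeq2 called 1 of the 10 (0.5% of the 9006 genes to which it gave an adjusted p). The third WT CITCO liver also stood apart in the acute phase, with 78.1 CPM of Saa1 against 2321 and 1828 CPM in the other WT CITCO livers, and the part of this in the level of Ces1e was not tested. In Car KO/hPXR livers Ces1e was 0.62 higher on the log2 scale than in WT CITCO (95% interval 0.13 to 1.12, edgeR adjusted p = 0.378).

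Ces1d, known as triacylglycerol hydrolase, releases stored lipid for the assembly of very low density lipoprotein. It was 143, 124 and 114 CPM in WT corn oil, 226, 129 and 280 in WT CITCO, 245, 348 and 166 in hCAR/hPXR and 190, 137 and 145 in Car KO/hPXR. The WT CITCO and hCAR/hPXR libraries were widely spread, and the second WT CITCO liver lay within the corn oil range. The log2 difference was 0.73 between WT CITCO and corn oil (95% interval 0.19 to 1.28, edgeR adjusted p = 0.357) and 0.69 between hCAR/hPXR and Car KO/hPXR (95% interval 0.14 to 1.23, edgeR adjusted p = 0.328). Both passed only when genes with low counts were kept in the test, with edgeR adjusted p of 0.0179 and 0.0216.

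Ces1c, the carboxylesterase that mouse liver secretes into plasma, was 1109, 947 and 886 CPM in WT corn oil and 954, 894 and 1334 in WT CITCO. It was 1200, 1314 and 1506 CPM in hCAR/hPXR and 1295, 954 and 1136 in Car KO/hPXR. The hCAR/hPXR libraries were above those of WT corn oil and overlapped the others, and the log2 difference from WT CITCO was 0.34 (95% interval -0.050 to 0.73, edgeR adjusted p = 0.636).

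Ces1g, a hydrolase of triglycerides and cholesteryl esters, ranged from 84.4 to 157 CPM over the 12 livers, with means of 115 in WT corn oil, 112 in WT CITCO, 104 in hCAR/hPXR and 120 in Car KO/hPXR. Ces1f ranged from 115 to 199 CPM, with means of 168, 156, 179 and 163 CPM in that order. Ces1b ranged from 30.1 to 63.3 CPM, with means of 45.7, 48.7, 37.6 and 41.7 CPM. The libraries of these 3 genes overlapped in all 4 comparisons. The Ces1 genes together summed to 1675 ± 163 CPM in WT corn oil, 1714 ± 441 in WT CITCO, 2079 ± 180 in hCAR/hPXR and 1802 ± 208 in Car KO/hPXR (SD, n = 3). Of that sum Ces1e made up 14.4% ± 3.16 in WT corn oil, 7.12% ± 0.667 in WT CITCO, 7.84% ± 1.77 in hCAR/hPXR and 10.7% ± 1.48 in Car KO/hPXR.

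Ces3a, in the cluster of the Ces2 genes, was 1726, 1672 and 1553 CPM in WT corn oil and 1715, 1868 and 1694 in WT CITCO. It was 1533, 2016 and 1371 CPM in hCAR/hPXR and 1174, 1642 and 1396 in Car KO/hPXR. All Car KO/hPXR libraries were below all WT CITCO libraries, but the log2 difference of -0.33 (95% interval -0.70 to 0.049) did not pass (edgeR adjusted p = 0.602). In the comparison of Car KO/hPXR with WT CITCO, 0.256% of all genes tested passed and none of the 10 carboxylesterases did. Here 2 of the 10 had an unadjusted p under 0.05 (9.3% of all genes tested). DESeq2 called 0 of the 10 (1.88% of the 3665 genes to which it gave an adjusted p). The second library had the highest Ces3a of its group in all 3 CITCO groups, as for Ces2c.

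**Figure D3:**
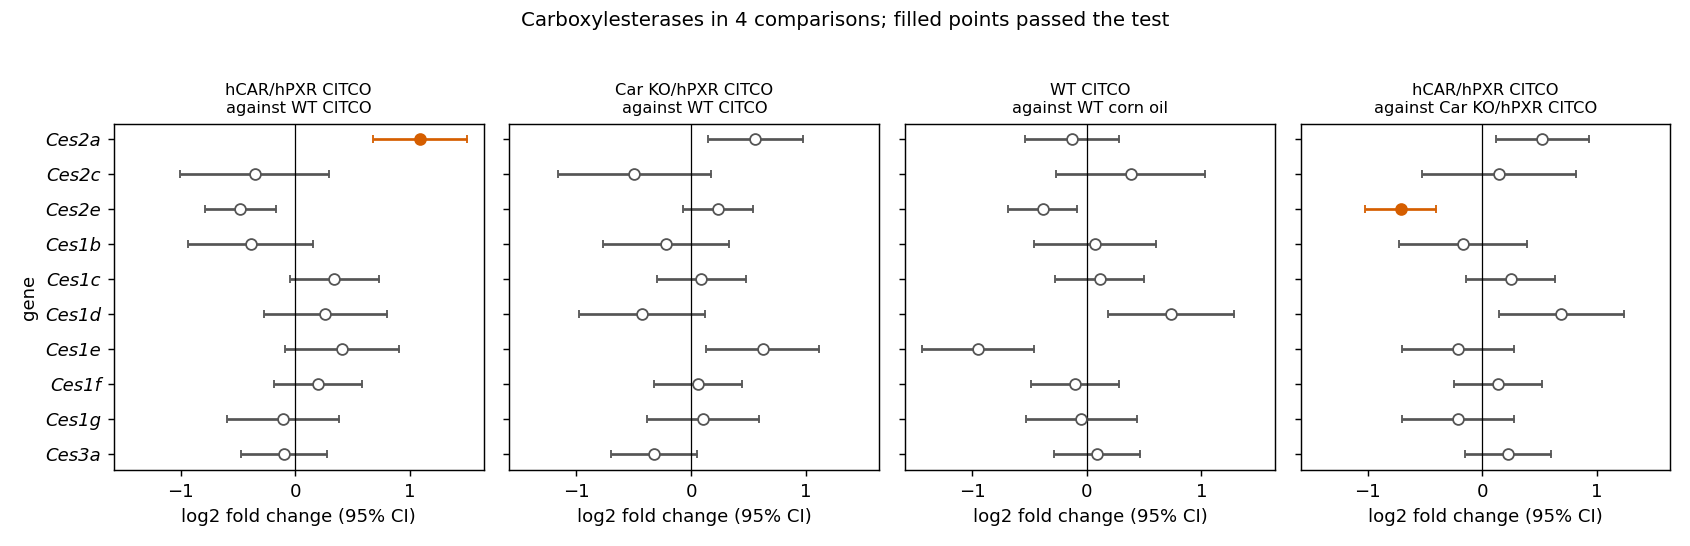
Log2 fold change (horizontal axis) of each carboxylesterase in the 4 comparisons, with 95% intervals from edgeR; filled points passed the test. The points that passed are Ces2a at 1.08 in hCAR/hPXR against WT CITCO and Ces2e at -0.71 in hCAR/hPXR against Car KO/hPXR.

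As a family the carboxylesterases did not move in one direction. Between hCAR/hPXR and WT CITCO 5 members had a positive and 5 a negative log2 difference, with a median of 0.049 against 0.013 over all genes tested. The split was 6 to 4 in Car KO/hPXR against WT CITCO (median 0.075, all genes -0.0039), 5 to 5 in WT CITCO against corn oil (0.013, all genes -0.00028) and 6 to 4 in hCAR/hPXR against Car KO/hPXR (0.14, all genes 0.013). Members whose libraries did not overlap between the groups numbered 2, 3, 2 and 2 of 10 in these comparisons. The share of all genes tested without overlap was 13.6%, 14.2%, 14.7% and 15.1%, which for 10 genes comes to 1 or 2. Comparisons that share WT CITCO or hCAR/hPXR livers are not independent of each other.

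Of the 10 other carboxylesterase genes in the annotation, 2 had enough counts to be tested. Ces1h, Ces2d-ps, Ces2f and Ces5a had no count in any library, and Ces1a, Ces2b, Ces2h and Ces4a had at most 13 counts in a library and were not tested. Ces2g had 20.1 to 40.9 CPM and Ces3b 298 to 689 CPM, and neither passed in edgeR in any comparison. At an unadjusted p under 0.05 Ces3b stood in 3 of the 4, and DESeq2 called it in hCAR/hPXR against WT CITCO. Ces3b, which lies beside Ces3a, was 396, 370 and 382 CPM in WT corn oil and 558, 689 and 427 in WT CITCO. It was 352, 414 and 298 CPM in hCAR/hPXR and 393, 432 and 323 in Car KO/hPXR. The WT CITCO libraries of Ces3b were above all those of WT corn oil (log2 difference 0.54, edgeR adjusted p = 0.322) and of hCAR/hPXR (log2 difference of hCAR/hPXR from WT CITCO -0.65, edgeR adjusted p = 0.181).

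Genes of related function, from lists chosen with results of these data known, gave few calls outside the receptor targets. Of 11 other ester hydrolases tested, such as arylacetamide deacetylase and the paraoxonases, none passed in edgeR in any of the 4 comparisons, with 1 or 2 at an unadjusted p under 0.05 in each. DESeq2 called 1, the paraoxonase Pon1, which differed by -0.65 on the log2 scale in hCAR/hPXR against WT CITCO (edgeR adjusted p = 0.141). Of 16 genes of triglyceride turnover and lipoprotein assembly, the pathway in which Ces1d and Ces1g act, none passed in edgeR or DESeq2, with 4, 2, 1 and 4 at an unadjusted p under 0.05 in hCAR/hPXR against WT CITCO, Car KO/hPXR against WT CITCO, WT CITCO against corn oil and hCAR/hPXR against Car KO/hPXR. Of 17 genes known to respond to CAR or PXR, 6 were higher in hCAR/hPXR than in WT CITCO in edgeR. Of those, 3 (Cyp2b10, Cyp2c29 and Cyp2c55) were also higher in edgeR in hCAR/hPXR livers when set against Car KO/hPXR. Papss2, a sulphate donor synthase, was 1.80-fold higher in Car KO/hPXR than in WT CITCO, and Alas1, the first enzyme of heme synthesis, was 3.33-fold higher in WT CITCO than in corn oil. None was lower by the test in edgeR. DESeq2 called 6 of the list in hCAR/hPXR against WT CITCO, with Cyp3a13 and without Cyp2c55. It called 3 in Car KO/hPXR against WT CITCO (Cyp3a11 and Cyp3a25 besides Papss2) and 1 in WT CITCO against corn oil. In hCAR/hPXR against Car KO/hPXR it called 6, including Cyp3a11 and Gstm3 and again not Cyp2c55. Cyp2b10, a P450 commonly used as a marker of CAR activity, had 184 to 288 counts in hCAR/hPXR libraries and at most 6 in any other, and its fitted log2 fold change over WT CITCO was 6.05 (edgeR adjusted p = 4.75e-08). Cyp3a11, a P450 used as a marker of PXR activity, was 4.05-fold higher in hCAR/hPXR than in WT CITCO (edgeR adjusted p = 0.000404). Cyp2c29 was 3.80-fold higher, Gstm3, a glutathione S-transferase, 5.93-fold, Cyp3a25 2.25-fold and Cyp2c55 19.1-fold in the same comparison. The mean of Cyp2c55 was 1.14 CPM in WT CITCO and 1.54 CPM in Car KO/hPXR, below the level taken as detected, so the size of its fold is uncertain. In hCAR/hPXR livers Cyp2c55 was 17.1 to 26.6 CPM.

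The genes whose levels were most like that of Ces2a over the 12 libraries, by Pearson's r of log2(CPM + 1), were Cxcl1 (0.94), the pseudogene Cyp3a63-ps (0.91), Cyp3a11 (0.91), Cyp3a25 (0.88) and Pla2g12a (0.86). These values describe the ranking among the genes tested, and the libraries share the 4 groups, so that a difference between groups alone gives a high r. Cyp3a63-ps averaged 1.34 CPM in WT corn oil and 1.15 CPM in WT CITCO, near or below the level taken as detected. Its mean was 3.69 CPM in Car KO/hPXR and 8.61 CPM in hCAR/hPXR, so its r rests on few counts. Cyp3a11, at 702 to 3865 CPM in single livers, was in the same order of group means as Ces2a in the CITCO groups, at 896 ± 196 CPM in WT, 1777 ± 568 in Car KO/hPXR and 3628 ± 206 in hCAR/hPXR (SD, n = 3). In WT corn oil it was 991 ± 340 CPM. The first WT corn oil liver, which had the highest Ces2a of its group, also had the highest Cyp3a11, 1365 CPM. Cxcl1, a chemokine, was 8.38 ± 3.89 CPM in WT corn oil, 11.2 ± 4.04 in WT CITCO, 112 ± 56.7 in hCAR/hPXR and 28.4 ± 19.0 in Car KO/hPXR. Among the members themselves, Ces2a and Ces2e had an r of -0.62, Ces1b and Ces1g, which lie in one cluster, 0.78, and Ces2c and Ces3a 0.73. The lowest r of any pair was -0.78, between Ces1f and Ces2c, which lie in different clusters.

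**Figure D4:**
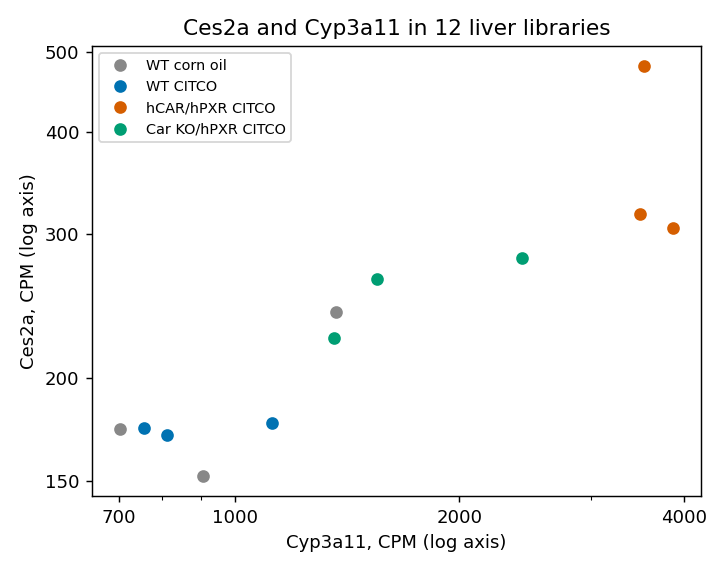
Level of Ces2a (vertical, log axis, CPM) against Cyp3a11 (horizontal, log axis, CPM) in the 12 livers, coloured by group. The 3 hCAR/hPXR livers stand at the upper right, above 300 CPM of Ces2a, the Car KO/hPXR livers between 224 and 281 CPM, and the WT CITCO livers at 171 to 177 CPM.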

How the data were processed

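Liver RNA of 12 mice was sequenced with a Lexogen QuantSeq 3′ kit on an Ion Torrent instrument. Per the submitters' processing notes, reads were trimmed with Trimmomatic 36 and aligned with STAR 2.5.2 to GRCm38. The authors deposited expected counts per gene from RSEM 1.3, not normalized, in which reads that match several genes are divided between them, and values on a log2-like scale from the variance-stabilising transformation of DESeq2 for 17859 genes. Groups were taken from the sample labels.

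Expected counts were rounded to whole numbers. In R 4.3.3, edgeR 4.0.16 filtered genes by expression (filterByExpr), normalized by TMM and fitted 1 mean for each group to the 12 libraries together for its quasi-likelihood test. Calls required a fold change over 1.5 and an adjusted p under 0.05 (Benjamini-Hochberg), the study's thresholds, in place of its DESeq2 test. Alternatives were DESeq2 1.42.0, its size factors, no filter, only the compared groups, a replicate block, limma 3.58.1 on the deposited log2 values, and leaving out each library. On simulated counts for hCAR/hPXR against WT CITCO with 8275 genes tested, 41.9% of the genes changed by 1 on the log2 scale and 86.8% of those changed by 2 were recovered, with 8 false among 131 calls. Libraries held 1167027 to 2341572 counts. The labels do not say more of the replicates than that they are separate samples, and p-values measure the spread between them. No 2 libraries of a group agreed within sampling noise (chi-square over degrees of freedom 4.46 to 19.3).

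The members, gene lists, comparisons and alternatives were chosen with earlier results of these data known. Genes named are the 10 members, other carboxylesterases with a count, genes of the other lists that were called (at most 6 per list, largest change first) with Nr1i2 and Nr1i3, and the 5 genes most correlated with the member called in most comparisons (Ces2a, by the lower adjusted p). Pon1 and Fabp1, called by DESeq2 alone, were named after their values were seen, and carboxylesterases at 0 were added for completeness. Gene positions are from GENCODE M21, and upstream sequences were available for 7 of the 10 members and not for Ces1d, Ces1f and Ces3a.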

Additional observations from a re-analysis of the deposited data

How the results depend on the processing

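For each of the 40 member results 12 alternatives were run, 480 in all. The direction and the side of the threshold were unchanged in 446, a call was lost in 9, gained in 5, and the sign changed in 20. The higher Ces2a (hCAR/hPXR against WT CITCO) and lower Ces2e (hCAR/hPXR against Car KO/hPXR) passed under all 6 alternatives that kept every library, with log2 fold changes of 0.92 to 1.09 and -0.73 to -0.62, and the 9 lost calls all came from leaving out 1 library. The number of carboxylesterases called in WT CITCO against corn oil was 0, but 1 with DESeq2 (Ces1e) and 2 without the filter on low counts (Ces1e and Ces1d). It was 1 in hCAR/hPXR against Car KO/hPXR, but 2 without the filter (Ces2e and Ces1d). With 1 library left out, it ranged from 0 to 1 in hCAR/hPXR against WT CITCO, from 0 to 1 in hCAR/hPXR against Car KO/hPXR and from 0 to 1 in WT CITCO against corn oil. It stayed at 0 in Car KO/hPXR against WT CITCO under every alternative. The cause of these changes was not tested.

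The 20 sign changes were in 13 results, none of them called, and all came from leaving out 1 library. Their log2 fold changes then ranged, against WT CITCO in Car KO/hPXR, from -0.39 to 0.0083 for Ces1b, from -0.027 to 0.29 for Ces1c, from -0.12 to 0.25 for Ces1f and from -0.075 to 0.40 for Ces1g. Against WT CITCO in hCAR/hPXR they ranged from -0.041 to 0.51 for Ces1d, from -0.29 to 0.19 for Ces1g and from -0.28 to 0.0084 for Ces3a. In WT CITCO against corn oil they ranged from -0.16 to 0.39 for Ces1b, from -0.085 to 0.23 for Ces1c, from -0.29 to 0.086 for Ces1f, from -0.35 to 0.25 for Ces1g and from -0.26 to 0.097 for Ces2a. For Ces2c in hCAR/hPXR against Car KO/hPXR the range was -0.36 to 0.38.

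The replicate numbers are shared by the groups. Correlations of the deviations of same-numbered samples were weak, at -0.050 to 0.074, and none passed the 0.1 set for treating the numbers as pairs. In 8 of 12 checks, each with 3 candidates, a sample correlated best with its own number, a hint of shared numbering from the data and not from the design. With the replicate block 1, 0, 0 and 1 carboxylesterases were called in the comparisons of hCAR/hPXR with WT CITCO, Car KO/hPXR with WT CITCO, WT CITCO with corn oil and hCAR/hPXR with Car KO/hPXR, as without it.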
